A study of Homo sapiens with 6 samples.

Results

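The comparison described here is that of A375 cells treated with 500 nM GSK3326595 for 72 h with A375 cells grown in 0.01% DMSO. A375 is an established human melanoma line with an activating BRAF mutation, and GSK3326595 is an inhibitor of PRMT5, the main enzyme that places symmetric dimethyl marks on arginine. RNA sequencing counts came from 2 libraries per group, and 2 libraries of cells given 1 µM palbociclib for 72 h, a CDK4 and CDK6 inhibitor, entered the fit and served as a second treated group. Ribosomal RNA was depleted before library preparation, so transcripts without a poly(A) tail could be counted. The genes described are those with at least 10 counts in both DMSO libraries or in both GSK3326595 libraries, which were 15792 of the 28395 gene IDs in the deposited tables. Of these, 14853 passed in both groups, 580 in DMSO only and 359 in GSK3326595 only. For a gene that passed in 1 group only, the filter favoured a higher level in that group, so counts at the low end of expression are descriptions. Among the 580 genes, 56 were called lower, and among the 359 genes, 92 were called higher. All groups are of 1 cell line, and the labels do not say whether the 2 libraries of a group came from separate cultures, and the p-values therefore cover only how far these few libraries differ, possibly for technical reasons.

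PRMT5 works in a complex with WDR77 and is guided to its substrates by adaptor proteins, among them CLNS1A, RIOK1 and COPRS. Its best known substrates are the Sm proteins, which form the core of the spliceosomal particles, along with histones and several RNA-binding proteins. Inhibition of the enzyme is known to alter splicing, including that of MDM4, a negative regulator of p53. Gene counts measure total transcript level per gene and do not show enzyme activity, protein level or splice choice.

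Total counts ranged from 16589153 to 19643715 in the 4 DMSO and GSK3326595 libraries. Both pairs of replicates differed beyond sampling noise (chi-square over its degrees of freedom 8.41 in DMSO and 10.7 in GSK3326595), so each library counted as 1 sample. The melanocyte lineage markers MITF, SOX10, PAX3 and GPNMB were present in all 4 libraries. PMEL and MLANA were at or under 2 CPM (reads scaled to a common library size, here the TMM-scaled total), and TYR, TYRP1 and DCT were too low to test. Of 10 blood cell markers, 3 were tested and 3 others were at 0 in all 4 libraries; the summed level was 89.3 to 96.6 CPM in DMSO and 71.6 to 74.1 CPM in GSK3326595, most of it CD68, which fell by 0.42 (adjusted p = 0.00723; 0.0566 without DMSO replicate 1). The summed level of 8 epithelial markers overlapped between groups, at 724 and 790 CPM in DMSO and 672 and 825 CPM in GSK3326595. The 9 fibroblast and endothelial markers summed to 19.3 and 20.4 CPM in DMSO and to 34.4 and 37.2 CPM in GSK3326595, most of it COL1A1, with COL1A2, COL3A1, DCN and CDH5 under 0.5 CPM in each library.

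After GSK3326595, 3123 of the 15792 genes (19.8%) differed from DMSO at a Benjamini-Hochberg adjusted p under 0.05 in edgeR's quasi-likelihood test. Called genes comprised 1446 that were higher (9.16%) and 1677 that were lower (10.6%), and only 550 of them (3.48%) changed at least 2-fold, 281 up and 269 down. The median absolute log2 fold change of called genes was 0.55, and the median over all genes tested was -0.00145. In each of the 3123 called genes both treated libraries lay beyond both DMSO libraries. Among all genes tested, both treated libraries were above both DMSO libraries in 4482 (28.4%) and below them in 4784 (30.3%). The number called depended on single libraries: it was 1746 without DMSO replicate 1 and 1793 without DMSO replicate 2, and the number called higher was 663, 745 and 914 without DMSO replicate 1, DMSO replicate 2 and GSK3326595 replicate 2.

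**Figure D1:**
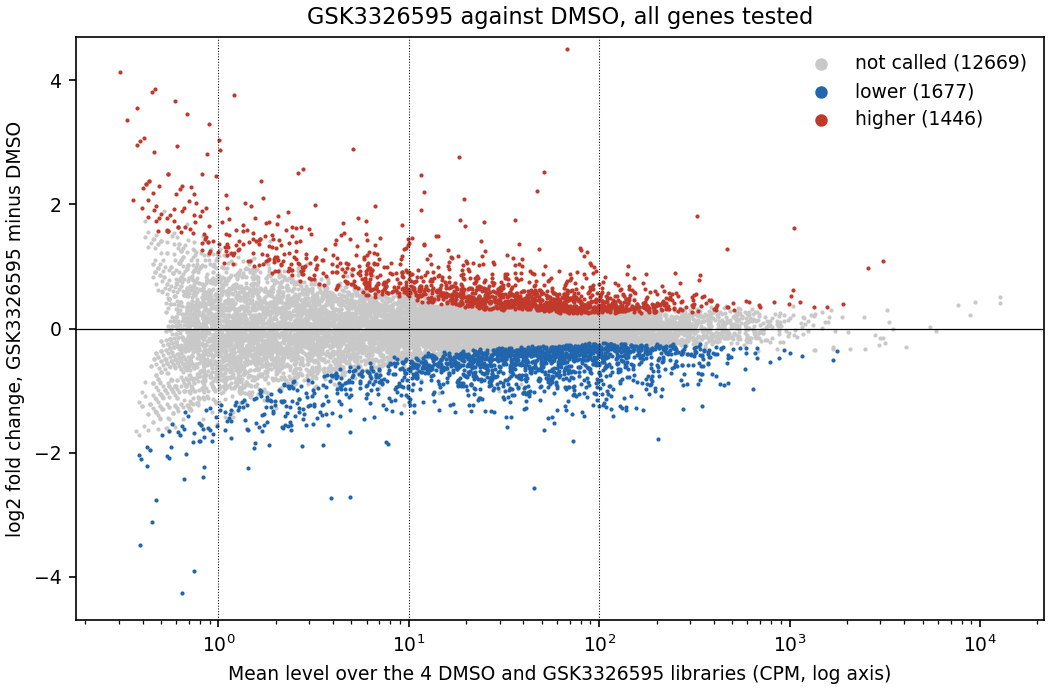
The log2 fold change of GSK3326595 minus DMSO is plotted against the mean level over the 4 libraries (CPM, log axis) for each gene tested, with genes called higher in red (1446), called lower in blue (1677) and not called in grey; values beyond 4.5 are drawn at 4.5 and dotted lines mark the level classes. Changes of at least 2-fold among genes above 100 CPM were few, and most of them were falls.

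The reach of the test differed by level. Under 1 CPM, 75 of 1230 genes were called higher and 43 lower (9.59%), and each of these changed at least 2-fold. The median standard error there was 0.45 on the log2 scale, and 531 of these 1230 genes passed the count filter in DMSO only and 324 in GSK3326595 only. DESeq2 called 3 higher and 1 lower in this class, and 192 higher and 156 lower at 1 to 10 CPM. Its default filter by mean count gives low genes no adjusted p, and such genes counted as not called. How many genes of each class this left out was not counted. Between 1 and 10 CPM, 294 of 4452 were higher and 247 lower (12.2%). Of 7764 genes at 10 to 100 CPM, 825 were higher and 1023 lower (23.8%). At 100 CPM or more, 252 of 2346 were higher and 364 lower (26.3%), but only 5 of those rises and 25 of those falls reached 2-fold. The balance of directions was not stable when 1 library was left out. At 100 CPM or more it reversed without GSK3326595 replicate 1, with 372 rises and 296 falls. Without DMSO replicate 2, 28 rises and 32 falls were called under 1 CPM and 117 rises and 192 falls at 1 to 10 CPM, and without GSK3326595 replicate 1 the latter class gave 216 rises and 336 falls. Without DMSO replicate 1 the rises and falls numbered 36 and 12 under 1 CPM, 155 and 84 at 1 to 10 CPM, 389 and 705 at 10 to 100 CPM, and 83 and 280 at 100 CPM or more. Without GSK3326595 replicate 2 they numbered 43 and 17, 240 and 124, 510 and 760, and 101 and 305 in the same order, and without DMSO replicate 2 the upper classes gave 444 and 615, and 156 and 188.

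Several genes of the lowest class were near 0 in 1 group. They passed the count filter only through the group where they are high, so their levels are a description with no test and no fold. PADI4, which converts protein arginine to citrulline, was at 0.167 and 0.259 CPM in DMSO and 1.81 and 1.28 CPM in GSK3326595. MFAP5, a microfibril protein, was at 0.0556 and 0.0518 CPM in DMSO and 0.816 and 0.928 CPM in the treated libraries. The neurokinin receptor gene TACR1 was on the other side, at 1.72 and 1.09 CPM in DMSO and 0.117 and 0.058 CPM after treatment. TLE2, a Groucho-family corepressor, was at 1.22 and 1.24 CPM in DMSO and at 0 and 0.116 CPM in the treated libraries.

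Gene length separated the directions slightly. Of protein-coding genes spanning under 10 kb, 12% were called higher and 9.29% lower, with a median log2 fold change of 0.08. Among genes of 100 kb or more, 7.48% were higher and 12% lower, with a median of -0.05. The classes between gave medians of 0.04 (10 to 30 kb) and -0.02 (30 to 100 kb). The median of the shortest class stayed above 0 and that of the longest class below 0 when any 1 library was left out, between 0.038 and 0.099 for the shortest and between -0.058 and -0.044 for the longest.

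By gene type, protein-coding genes held most of the calls, with 1345 of 13659 higher and 1530 lower (21.0%). Of 1196 long non-coding RNAs 61 were higher and 85 lower (12.2%), with a median of -0.14 that ranged from -0.304 without GSK3326595 replicate 1 to -0.02 without GSK3326595 replicate 2, and was -0.044 without DMSO replicate 1 and -0.213 without DMSO replicate 2. Without DMSO replicate 1 these counts were 37 and 29, without DMSO replicate 2 they were 24 and 75, and without GSK3326595 replicate 2 they were 48 and 37. Pseudogenes gave 21 higher and 33 lower of 447, with 7 and 31 without DMSO replicate 2, 17 and 17 without DMSO replicate 1, and 19 and 17 without GSK3326595 replicate 2. Of 84 miRNA loci 6 were higher and 4 lower. These counts were 2 and 0 without DMSO replicate 1, 5 and 1 without DMSO replicate 2, 4 and 9 without GSK3326595 replicate 1, 2 and 1 without GSK3326595 replicate 2, 4 and 1 without palbociclib replicate 2, and 2 and 0 in DESeq2.

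The genes with the largest rises, outside the p53 target and histone lists and with a mean of at least 5 CPM, were led by NECTIN4 (Gene ID 81607; GRCh38 chromosome 1, 161070998 to 161089558), a cell adhesion protein of the nectin family. NECTIN4 stood at 1.28 and 1.14 CPM in DMSO and 8.21 and 9.68 CPM in GSK3326595, a log2 fold change of 2.88 ± 0.24 (SE; adjusted p = 4.07e-05). INPP5D (Gene ID 3635; chromosome 2, 233060342 to 233207903), which encodes the inositol phosphatase SHIP1, rose from 5.61 and 3.78 to 35.1 and 28.6 CPM, by 2.77 ± 0.18. The neuronal vesicle-priming gene UNC13A rose from 9.33 and 7.77 to 28.8 and 28.5 CPM, by 1.75 ± 0.13. In both INPP5D and UNC13A the palbociclib libraries stayed near DMSO, at 6.22 and 5.99 CPM and at 8.21 and 8.17 CPM, and the direct difference between the treatments was 2.38 (adjusted p = 8.08e-06) and 1.81 (adjusted p = 7.9e-06).

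The other large rises ranged from 1.5 (RHBDL1) to 2.47 (GASK1B) on the log2 scale. They included PTCHD4, a Patched-related protein known as a p53-induced gene, at 7.61 and 7.15 CPM in DMSO and 28.6 and 34.4 CPM in GSK3326595. EGR1, an immediate-early transcription factor, rose from 4.83 and 4.92 to 13.6 and 23.2 CPM, and its treated libraries differed from each other more than those of most genes named. ACTA2, the smooth muscle actin gene (Gene ID 59; chromosome 10, 88935074 to 88991337), rose from 5.06 and 3.62 to 18.7 and 20.9 CPM. Its gene model overlaps that of FAS, a p53 target, which rose by 1.26 ± 0.12. GAS6-AS1 rose by 1.78 ± 0.25 and overlaps GAS6, which rose by 0.54 ± 0.17. GAS6 did not pass with DMSO replicate 1, DMSO replicate 2 or GSK3326595 replicate 1 left out (adjusted p = 0.0683, 0.173 and 0.196). Whether the counting used strand is not given in the sources used here, so the reads of such overlapping pairs cannot be told apart. SUGCT, PTPRU and the tight-junction gene CLDN1 completed the rises, by 1.98, 1.66 and 1.53.

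The largest falls mixed S-phase genes with genes outside the cell cycle. RRM2, the inducible subunit of ribonucleotide reductase (Gene ID 6241; chromosome 2, 10122568 to 10211010), fell from 264 and 363 CPM in DMSO to 88.8 and 94 CPM in GSK3326595, a log2 fold change of -1.78 ± 0.14 (adjusted p = 3e-05). SYNE2 (chromosome 14, 63761596 to 64226449), which links the nucleus to the cytoskeleton, fell from 55.8 and 43.0 to 16.6 and 16.2 CPM. B4GALNT1, the synthase of gangliosides GM2 and GD2, fell from 30.8 and 30.1 to 11 and 13.3 CPM. For SYNE2 and B4GALNT1 the GSK3326595 libraries also lay below both palbociclib libraries, with log2 differences of -0.54 and -0.87 (adjusted p = 0.011 and 0.000577). MXRA8, a surface protein known as an alphavirus receptor, fell from 43.3 and 34.3 to 17.6 and 13.1 CPM, whereas its palbociclib libraries were at 74.2 and 82.9 CPM.

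The remaining large falls were NEIL3, CENPI, E2F8, FAM111B and ASF1B, all known from DNA replication, repair, centromeres or chromatin assembly, together with ATP8B3, TMPO-AS1 and HMGA2-AS1. E2F8 and FAM111B fell by 1.33 and 1.32 on the log2 scale with GSK3326595, yet remained above palbociclib by 1.39 and 1.82. TMPO-AS1 fell by 1.46 and HMGA2-AS1 by 1.44. Each overlaps the gene it is named after, and TMPO and HMGA2 themselves fell by 0.65 and 0.60.

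**Figure D2:**
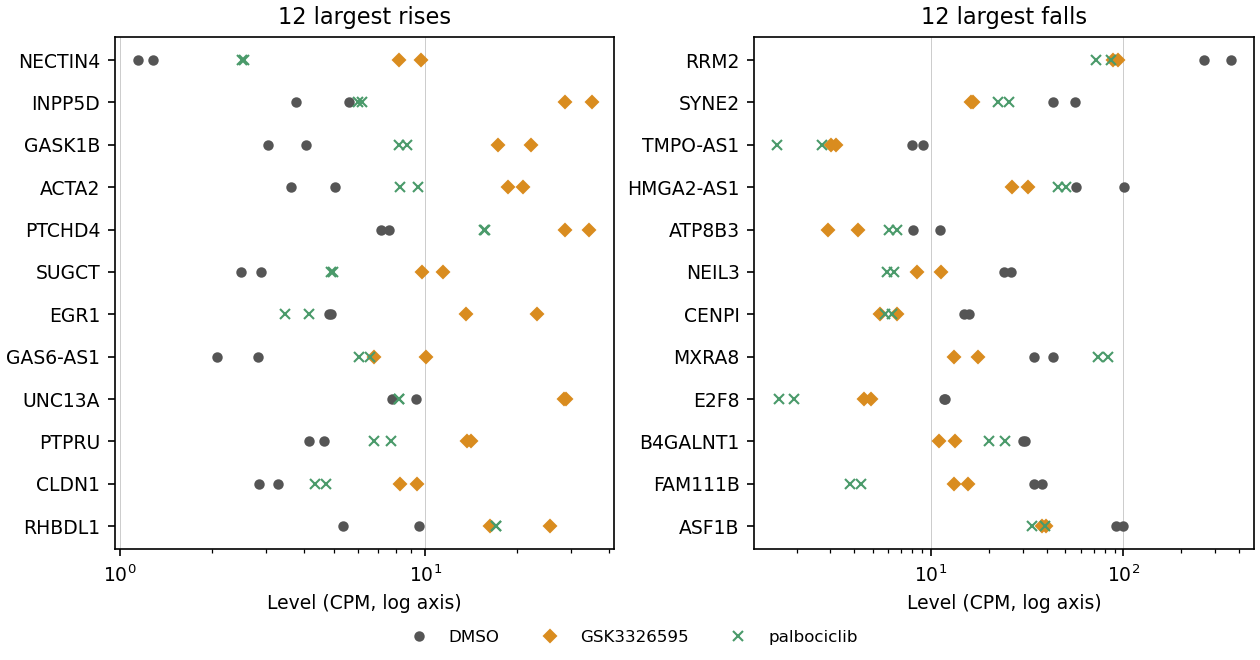
Levels (CPM, log axis) of the 12 largest rises and 12 largest falls are plotted for every library, with DMSO as grey circles, GSK3326595 as orange diamonds and palbociclib as green crosses. For each gene both GSK3326595 libraries lie beyond both DMSO libraries, while the palbociclib libraries differ by gene: near DMSO for UNC13A, on the far side of DMSO for MXRA8 and beyond GSK3326595 for E2F8, FAM111B and NEIL3.

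Transcripts of cell division fell together. In bulk samples fewer dividing cells and less of these RNAs per cell cannot be told apart. Of the 50 tested members of the DNA replication list 45 fell, of 42 mitosis genes 42, of 28 homologous recombination and Fanconi repair genes 22, and of 61 replication-dependent histone genes 56, against 10.6% over all genes. No member of these lists rose. POLA1, the catalytic subunit of DNA polymerase alpha, was at 97.2 and 100 CPM in DMSO and 49.8 and 44.5 CPM in GSK3326595, a fall of 1.07 on the log2 scale. DTL, an adaptor of the CUL4 ubiquitin ligase, fell by 0.86 from 113 and 114 CPM. ASPM, a spindle pole protein, was at 481 and 490 CPM in DMSO and 223 and 186 CPM after treatment. KIF23, a cytokinesis kinesin, went from 128 and 141 to 71.6 and 66.2 CPM. FANCI, which is monoubiquitinated at stalled forks, fell by 1.30 from 162 and 166 CPM, and the linker histone gene H1-3 by 1.30 from 367 and 420 CPM. Histone genes have near-identical copies, so single members are uncertain where reads could be shared. The falls were smaller than with palbociclib in most histone and mitosis genes: 52 of 61 and 39 of 42 lay above palbociclib in the direct test, against 18.3% over all genes.

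Promoters of these genes carry known cell-cycle motifs, and 4 are shown because they hold the motif of their class in the 250 bases before the gene start. The sequences are RefSeq's, build GRCh38.p14, written 5′ to 3′ in the direction of the gene. Capitals mark the CHR motif (TTTGAA, on either strand), a repressor element of G2/M genes, in the mitosis genes ASPM (chr1:197146670-197146919, minus strand) and KIF23 (chr15:69414099-69414348, plus strand).
ASPM: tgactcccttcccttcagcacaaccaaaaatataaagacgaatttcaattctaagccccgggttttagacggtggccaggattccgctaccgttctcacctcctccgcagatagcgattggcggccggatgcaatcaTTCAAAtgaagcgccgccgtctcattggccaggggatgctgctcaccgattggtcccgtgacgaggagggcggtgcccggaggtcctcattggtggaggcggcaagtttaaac
KIF23: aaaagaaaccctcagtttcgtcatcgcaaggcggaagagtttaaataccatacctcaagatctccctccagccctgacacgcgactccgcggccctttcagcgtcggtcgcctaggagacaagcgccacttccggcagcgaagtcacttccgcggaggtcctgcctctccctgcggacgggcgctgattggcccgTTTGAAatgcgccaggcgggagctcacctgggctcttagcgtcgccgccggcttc
In the replication genes POLA1 (chrX:24693668-24693917, plus strand) and DTL (chr1:212035498-212035747, plus strand) the capitals mark an E2F word (TTTCCCGC, TTTCGCGC, TTTGCCGC or TTTGGCGC, on either strand).
POLA1: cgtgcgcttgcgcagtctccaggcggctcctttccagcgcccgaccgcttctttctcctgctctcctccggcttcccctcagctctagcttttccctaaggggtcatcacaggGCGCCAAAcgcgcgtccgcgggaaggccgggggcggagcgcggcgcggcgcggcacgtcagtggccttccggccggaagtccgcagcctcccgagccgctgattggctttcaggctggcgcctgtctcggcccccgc
DTL: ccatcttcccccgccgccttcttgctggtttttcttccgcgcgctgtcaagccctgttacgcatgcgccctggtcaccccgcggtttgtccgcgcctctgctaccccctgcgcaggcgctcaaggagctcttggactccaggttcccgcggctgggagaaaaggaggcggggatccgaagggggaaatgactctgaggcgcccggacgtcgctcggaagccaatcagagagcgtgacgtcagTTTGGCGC

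Promoter windows of 300 bases (250 before and 50 after the gene start) were at hand for 11199 of 13659 protein-coding genes tested (82.0%). An E2F word was present in 5.25% of all these windows, in 3.62% of those of genes called higher and in 10.5% of those of genes called lower. The lower genes include the cell division lists. Without the replication, mitosis, histone, repair, and kinesin and dynein lists, 8.07% of windows of lower genes held an E2F word. Among the replication genes 21 of 42 windows held one, of which 15 had it in the 250 upstream bases. The CHR was present in 10.1% of all windows, 8.47% of the higher and 16.8% of the lower genes, or 14.2% without the same lists. It was in 26 of 36 mitosis windows, of which 19 had it in the 250 upstream bases. A CCAAT box (CCAAT, either strand), the site of NF-Y, was in 36.8% of all windows and in 48 of 57 histone windows. The E-box CACGTG, which MYC and MAX can bind, was in 9.81% of all windows and 13 of 31 ribosome biogenesis windows, of which 6 had it in the 250 upstream bases. A match is a run of letters and not a shown binding site.

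**Figure D3:**
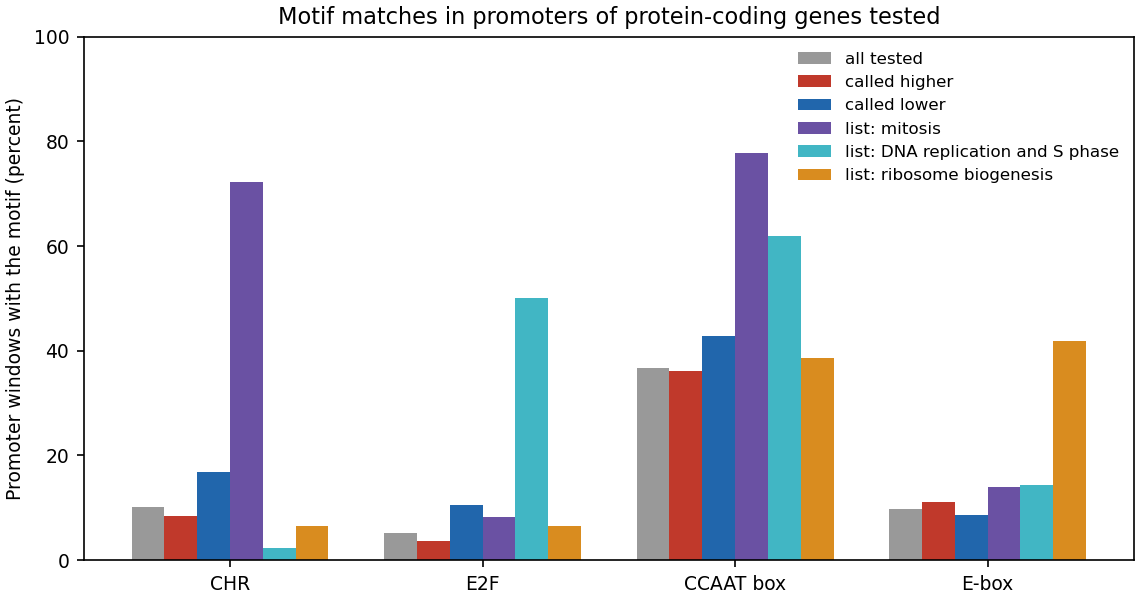
Bars give the percent of 300-base promoter windows that hold each motif for all protein-coding genes tested, genes called higher, genes called lower and 3 gene lists. The CHR is in 72.2% of mitosis windows and the E2F word in 50% of replication windows, against 10.1% and 5.25% over all windows.

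Chromatin and transport lists also held falls, against 10.6% called lower over all genes. In the DNA methylation and Polycomb list 8 of 30 fell and 1 rose. UHRF1, which brings DNMT1 to hemimethylated DNA, went from 207 and 248 to 130 and 138 CPM, DNMT3B from 14.3 and 13.6 to 6.88 and 5.80 CPM, and the Polycomb methyltransferase gene EZH2 from 55.0 and 61.5 to 36.9 and 36.7 CPM. The exception was PCGF1, a subunit of a variant Polycomb complex, which rose by 0.55. Of 57 kinesin and dynein genes 20 fell and 1 rose, among them KIF14 (140 and 152 to 77.0 and 68.0 CPM). Nuclear pore genes gave 5 falls of 30 (16.7%), led by NUP107 and NUP85, which fell by 0.47 and 0.42. Some of these calls were lost when 1 library was left out.

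The transcripts of PRMT5's own complex rose slightly. PRMT5 was at 66.2 and 75.5 CPM in DMSO and 86.2 and 99.4 CPM in GSK3326595, a log2 fold change of 0.39 ± 0.10 (adjusted p = 0.0187). Its obligate partner WDR77 went from 80.5 and 93.5 to 107 and 130 CPM (0.45 ± 0.11, adjusted p = 0.0135). MAT2A, which makes the methyl donor S-adenosylmethionine, fell from 428 and 417 to 340 and 298 CPM (-0.40 ± 0.09, adjusted p = 0.0117). All 3 calls were lost without GSK3326595 replicate 2, at adjusted p = 0.118 for PRMT5, 0.0928 for WDR77 and 0.0623 for MAT2A, and those of PRMT5 and WDR77 also without DMSO replicate 1, at 0.175 and 0.126. The other 9 members of the list, among them the adaptors CLNS1A (0.15), RIOK1 (0.33) and COPRS (0.23) and the methylthioadenosine phosphorylase gene MTAP (-0.18), did not pass. None of 7 other arginine methyltransferase genes was called by edgeR with TMM scaling or by DESeq2, with 1 above and 1 below at an unadjusted p under 0.05; edgeR on library totals called 1 lower.

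Sm, LSm and SMN complex genes, a list wider than the substrates of PRMT5, showed few changes in total level. Of 31 tested, 3 rose (9.68%: SMN2, SNRPC and SNRPD2) and 1 fell (3.23%: GEMIN4), against 9.16% and 10.6% over all genes. SNRPD2, an Sm core protein, was at 245 and 257 CPM in DMSO and 304 and 337 CPM in GSK3326595, and each of these 4 calls was lost without DMSO replicate 1 (adjusted p = 0.13 for SNRPD2, 0.128 for SMN2, 0.236 for SNRPC and 0.081 for GEMIN4). Those of SNRPD2, SNRPC and GEMIN4 were also lost without GSK3326595 replicate 2 (0.107, 0.167 and 0.157), those of SNRPD2 and GEMIN4 without DMSO replicate 2 (0.0564 and 0.211), that of SMN2 without GSK3326595 replicate 1 (0.0847) and that of GEMIN4 without either palbociclib library (0.0795). The list gave 1 rise without GSK3326595 replicate 2 and 7 rises without GSK3326595 replicate 1. SMN2 has a near-identical copy, SMN1, so its count is uncertain. In the SR and hnRNP list 4 of 35 fell (11.4%, near the 10.6% over all genes). In the same list 1 rose, SRSF8 (38.8 and 37.2 to 50.6 and 59.3 CPM). HNRNPR fell from 282 and 329 to 218 and 243 CPM and HNRNPA0 from 152 and 165 to 110 and 132 CPM, and both calls were lost without DMSO replicate 2 (adjusted p = 0.137 and 0.107) and without GSK3326595 replicate 1 (0.055 and 0.0719). The falls in that list numbered 2 without DMSO replicate 1, 0 without DMSO replicate 2, 1 without GSK3326595 replicate 1, and 2 without GSK3326595 replicate 2 or either palbociclib library. Against palbociclib the list had 26 of 35 above and none below (18.3% and 17.2% over all genes), for example PTBP2 by 1.39 and HNRNPD by 0.92. MDM4 was at 197 and 162 CPM in DMSO and 184 and 131 CPM in GSK3326595, groups that overlapped (adjusted p = 0.415).

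**Figure D4:**
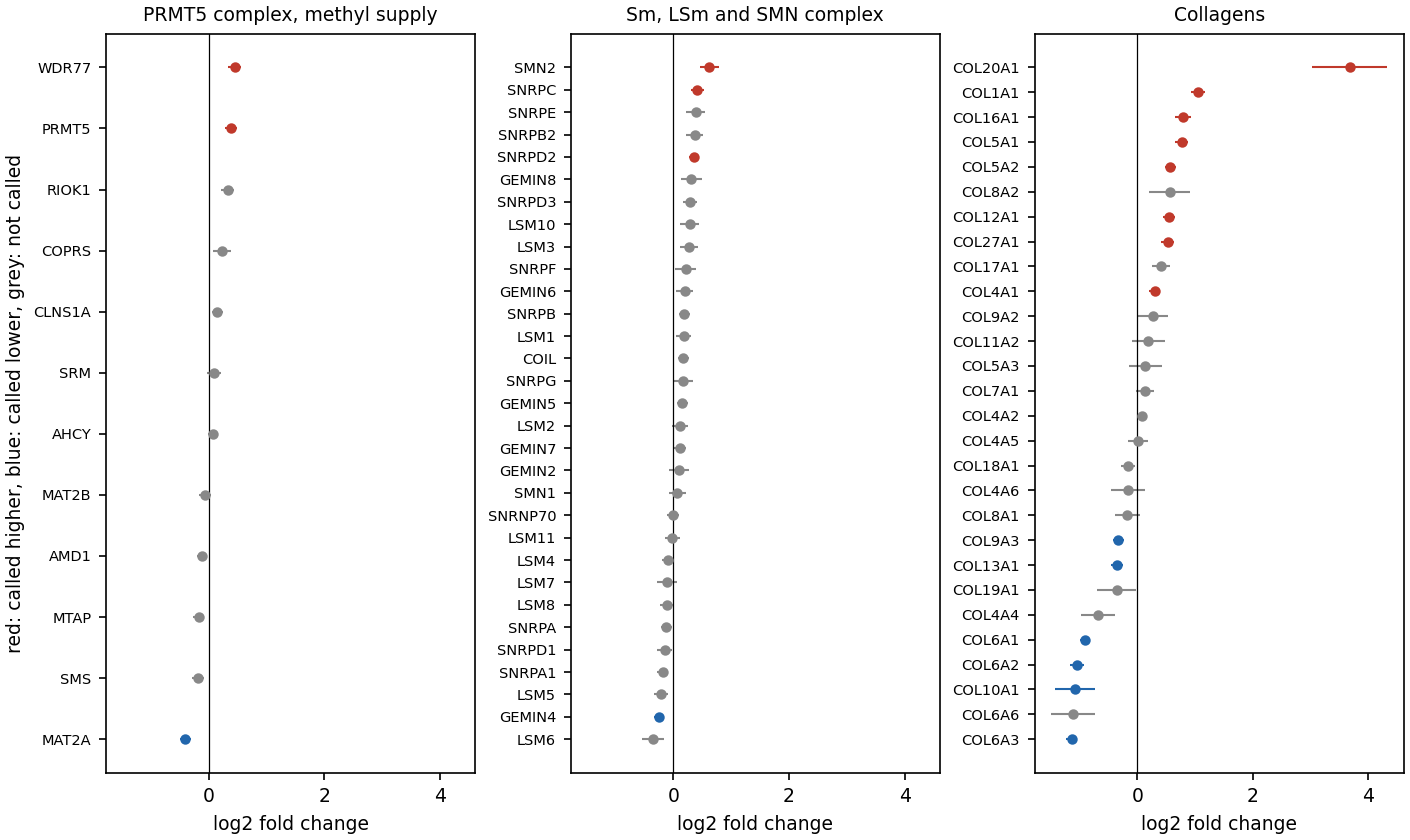
Log2 fold changes of GSK3326595 minus DMSO with their standard errors are shown for the PRMT5 complex and methyl supply, the Sm, LSm and SMN complex genes, and the collagens, with called genes in red (higher) or blue (lower). Most points of the first pair of lists lie within 0.5 of 0, while collagens spread from COL6A3 at -1.14 to COL1A1 at 1.05, leaving aside COL20A1, which passed the count filter only through GSK3326595 and whose plotted value is no measured fold.

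Genes of ribosome biogenesis rose more often than the background of 9.16%. So did DEAD and DEAH box helicases, a protein family not confined to ribosome assembly. In the ribosome biogenesis list 11 of 38 rose and 1 fell, and 13 of 49 DEAD and DEAH box helicases rose and 5 fell. UTP14A, a small-subunit processome protein, went from 71.8 and 82.0 CPM to 127 and 146 CPM (0.83 ± 0.10, adjusted p = 0.000201). NOP2, an rRNA methyltransferase, rose by 0.53 and PES1, of the PeBoW complex, by 0.63. NOP56, a core protein of box C/D snoRNPs, fell from 199 and 223 to 162 and 160 CPM, and did not pass with DMSO replicate 2 left out (adjusted p = 0.096). Among the helicases DDX23, a splicing helicase, rose from 74.8 and 85.8 to 124 and 129 CPM, and DDX49 and DHX34 rose by 0.53 and 0.52. DDX11, which acts in sister chromatid cohesion, fell by 0.60. The rises in the ribosome biogenesis list numbered 4 without DMSO replicate 1, 7 without DMSO replicate 2 and 5 without GSK3326595 replicate 2, and those of the helicases 7, 10 and 8; the falls of the helicases numbered 3 without DMSO replicate 2.

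Cytosolic and mitochondrial ribosomal protein genes were called higher in 12.9% and 11.7%, near the 9.16% over all genes. Translation initiation factors were called higher in 20%. No member of these lists was called lower, against 10.6% over all genes. Of 85 cytosolic ribosomal protein genes 11 rose and none fell, while in 51 both treated libraries lay above both DMSO libraries (28.4% over all genes), and the median was 0.24. RPS19 was at 831 and 829 CPM in DMSO and 1147 and 1238 CPM in GSK3326595 (0.52 ± 0.10). RPS27L, a p53-induced paralogue, rose most of those named, from 44.0 and 50.1 to 95.4 and 131 CPM. Mitochondrial ribosomal protein genes gave 9 rises of 77, with MRPL10 and MRPL41 up by 0.44 and 0.56, and translation initiation factors 10 of 50, with EIF3D up from 190 and 199 to 263 and 280 CPM. These counts turned on single libraries: the cytosolic list gave 2 rises without DMSO replicate 1, 6 without DMSO replicate 2, 48 without GSK3326595 replicate 1, 3 without GSK3326595 replicate 2 and 6 without either palbociclib library. The mitochondrial list gave 2, 4, 20 and 3 rises without those DMSO and GSK3326595 libraries in the same order, and 5 and 4 without palbociclib replicates 1 and 2. The initiation factors gave 2, 5, 11 and 4.

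Host genes of snoRNAs and the snoRNAs themselves were counted apart. Host genes were called higher in 30.4%, against 9.16% over all genes. The snoRNA genes were called higher in 0.55% and lower in 5.52%, against 10.6% lower over all genes. Of 23 host genes 7 rose and none fell, with SNHG19 at 15.1 and 14.4 CPM in DMSO and 22.7 and 23.4 CPM in GSK3326595, and SNHG1 going from 81.7 and 82.4 to 110 and 111 CPM. The rises numbered 4 without either DMSO library. Among 181 snoRNA genes (including scaRNAs), which guide rRNA and snRNA modification and are mostly cut from introns, 1 rose and 10 fell, with a median of -0.24. SCARNA10 fell from 63.3 and 50.4 to 17.6 and 33.2 CPM, and SNORD104 was the single rise, from 2.00 and 2.43 to 4.43 and 4.17 CPM. SNORD104 did not pass with DMSO replicate 1, DMSO replicate 2 or GSK3326595 replicate 1 left out (adjusted p = 0.132, 0.0532 and 0.0511). The falls numbered 6 without DMSO replicate 2. The median for snoRNA genes by RefSeq type was -0.13 without GSK3326595 replicate 2 and -0.50 without GSK3326595 replicate 1.

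A run of lower transcripts lay in the Prader-Willi region of chromosome 15, a set picked after its values were seen. The SNORD116 snoRNAs there are processed from a long transcript downstream of SNRPN. Of 17 SNORD116 copies tested 4 fell (SNORD116-14, SNORD116-18, SNORD116-19 and SNORD116-21) and none rose, 15 had a log2 fold change below 0, and the copies summed to 39.3 and 39.9 CPM in DMSO and 24.2 and 21.5 CPM in GSK3326595. SNORD116-21 was at 4.83 and 4.97 CPM in DMSO, 2.27 and 1.91 CPM in GSK3326595 and 8.87 and 8.12 CPM in palbociclib. The neighbouring long transcripts PWAR5 (45.0 and 41.9 to 29.1 and 30.4 CPM) and PWARSN (18.3 and 18.2 to 13.1 and 9.45 CPM) fell as well, and so did SNORD109A (2.44 and 2.59 to 0.816 and 1.28 CPM). The 17 copies are near-identical and lie on 1 transcript, so they are not independent. The call of SNORD116-14 was lost without DMSO replicate 2 (adjusted p = 0.0518), that of SNORD116-18 without DMSO replicate 1 or GSK3326595 replicate 2 (0.0607 and 0.0762), and that of SNORD109A without DMSO replicate 2 or GSK3326595 replicate 1 (0.065 and 0.0683).

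Of 14 tRNA genes tested, 8 passed the count filter only through GSK3326595 and 1 only through DMSO, so their counts are no result. Of the 5 that passed in both groups 3 were called higher, TRI-AAT2-1, TRL-TAA4-1 and TRP-CGG2-1. The most abundant, TRI-AAT2-1, an isoleucine tRNA gene, was at 11.4 and 14.7 CPM in DMSO and 23.2 and 27.1 CPM in GSK3326595 (0.94 ± 0.15, adjusted p = 0.00123). The call of TRL-TAA4-1 ended without DMSO replicate 1 (0.206), DMSO replicate 2 (0.0708), GSK3326595 replicate 2 (0.169) or palbociclib replicates 1 and 2 (0.0705 and 0.0694), and that of TRP-CGG2-1 without DMSO replicate 2 (0.0748). MIR3648-1, a miRNA locus inside the 45S rRNA gene RNA45SN2 (chromosome 21, 8205988 to 8219302), was at 406 and 634 CPM in DMSO and 1229 and 1953 CPM in GSK3326595. Its counts may be fragments of the rRNA precursor, which these data cannot tell apart from the miRNA. MIR6724-4, from the same repeat family, was at 269 CPM in GSK3326595 replicate 2 against 0.583 CPM in replicate 1 and 0.278 and 0.155 CPM in DMSO, so its level rested on 1 library.

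Among long non-coding RNAs, HERPUD2-AS1 rose from 16.2 and 14.8 to 31.6 and 31.1 CPM (1.02 ± 0.12, adjusted p = 0.00019). Among abundant long non-coding RNAs, a selection made after their values were seen, some rose and some fell. SNHG29 went from 519 and 520 to 674 and 722 CPM (adjusted p = 0.00809; 0.0603 without DMSO replicate 1). NEAT1, the scaffold of paraspeckles, was at 550 and 485 CPM in DMSO and 342 and 265 CPM in GSK3326595 (-0.77 ± 0.21, adjusted p = 0.0265). It did not pass with DMSO replicate 1 or GSK3326595 replicate 2 left out (0.0908 and 0.0846) or in DESeq2 (0.146). MIR100HG went from 198 and 164 to 115 and 95.2 CPM. MALAT1 overlapped between groups, at 4999 and 4007 CPM in DMSO and 4261 and 3064 CPM in GSK3326595 (adjusted p = 0.272).

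Amino acid and lipid genes changed in both directions with more falls. The ATF4 and serine synthesis list had 10.3% called higher and 31% lower, and sterol and fatty acid synthesis 3.33% and 23.3%. Over all genes these shares were 9.16% and 10.6%. In the list of ATF4 targets and serine synthesis 9 of 29 fell and 3 rose, or 6 without GSK3326595 replicate 1. SLC7A11, the cystine importer, went from 79.2 and 84.7 to 44.3 and 49.0 CPM (-0.81 ± 0.10, adjusted p = 0.000307), while palbociclib stayed at 78.3 and 92.1 CPM. PCK2, the mitochondrial PEP carboxykinase, fell by 0.80 and the glycine transporter SLC6A9 by 0.98. ATF3, a stress-induced factor, rose from 7.61 and 5.96 to 16.0 and 18.8 CPM. Unfolded protein response genes gave no call among 26 in edgeR with TMM scaling or in DESeq2, with 3 above and 1 below at an unadjusted p under 0.05. Without GSK3326595 replicate 1 there were 3 rises, and on library totals 1. In sterol and fatty acid synthesis 7 of 30 fell and 1 rose: FADS1, a fatty acid desaturase, went from 378 and 368 CPM to 248 CPM in both libraries, and INSIG1 from 79.1 and 81.7 to 46.7 and 53.3 CPM. The falls numbered 4 without DMSO replicate 1 and 3 without DMSO replicate 2. TM7SF2, a sterol reductase, was the rise, at 0.75, lost without DMSO replicate 2 and GSK3326595 replicate 1 (adjusted p = 0.163 and 0.12).

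Energy and lysosomal genes had median log2 fold changes of 0.10 (glycolysis), 0.20 (oxidative phosphorylation) and 0.03 (lysosome). Called higher and lower were 17.4% and 4.35%, 12.2% and 1.35%, and 12.2% and 12.2% in that order. Over all genes the shares were 9.16% and 10.6%. In 32 of the 74 oxidative phosphorylation genes both treated libraries lay above both DMSO libraries (28.4% over all genes), and in 4 below (30.3%). Glycolysis gave 4 rises and 1 fall of 23, with ALDOC at 97.8 and 92.9 CPM in DMSO and 169 and 142 CPM in GSK3326595 and HK2, hexokinase 2, up by 0.52, whereas PFKL fell by 0.44; the rises numbered 2 without DMSO replicate 1. Of 74 oxidative phosphorylation subunits 9 rose and 1 fell, but the rises numbered 0 without DMSO replicate 1, 32 without GSK3326595 replicate 1 and 0 without GSK3326595 replicate 2. Of 41 lysosomal genes 5 rose and 5 fell, with 2 rises without DMSO replicate 2, 3 falls without DMSO replicate 1, and 3 of each without GSK3326595 replicate 2. ARSA, a lysosomal hydrolase, fell by 0.83, and the sphingomyelinase gene SMPD1 rose by 0.63. Against palbociclib 29 of the 41 were lower (17.2% over all genes), such as ARSA and GAA with log2 differences of -1.67 and -1.33.

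The matrix genes separated by chain and receptor. Collagens were called higher in 28.6% and lower in 21.4%, against 9.16% and 10.6% over all genes. All 3 chains of the main type VI collagen fell: COL6A1 from 384 and 336 to 188 and 196 CPM, COL6A2 from 159 and 121 to 68.3 and 66.7 CPM, and COL6A3 from 42.6 and 44.2 to 20.3 and 19.1 CPM. COL1A1, a chain of fibrillar type I collagen, rose instead, at 13.9 and 12.5 CPM in DMSO and 28.4 and 26.1 CPM in GSK3326595, and COL5A1 and COL16A1 rose by 0.77 and 0.79. In all, 8 of 28 collagen genes rose, COL20A1 included, and 6 fell; the falls numbered 3 without either DMSO library. COL1A2, the partner chain of COL1A1, was under 0.5 CPM throughout. For COL6A1 and COL6A3 the GSK3326595 libraries were also below palbociclib, with log2 differences of -0.87 and -2.03.

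Adhesion receptors changed along with them. Integrins and laminins were called higher in 11.8% and lower in 20.6%, against 9.16% and 10.6% over all genes. These shares were 29.6% and 7.41% in matrix glycoproteins, and 18.2% and 6.06% in metalloproteinases and inhibitors. ITGA3, the laminin-binding integrin alpha 3 chain (Gene ID 3675; chromosome 17, 50056110 to 50090481), went from 889 and 816 CPM to 433 and 437 CPM (-0.97 ± 0.10, adjusted p = 0.000108), with palbociclib at 1059 and 958 CPM. ITGB3 and ITGB4 fell by 0.48 and 0.57. ITGA2, the collagen-binding alpha 2 chain, rose from 106 and 114 to 182 and 206 CPM, and LAMB3, a laminin chain, by 0.81. The integrin and laminin list gave 7 falls and 4 rises of 34, and 2 rises without DMSO replicate 2. Among 27 matrix glycoproteins 8 rose and 2 fell. THBS1, thrombospondin 1 (Gene ID 7057; chromosome 15, 39581079 to 39599466), went from 1593 and 1893 to 3151 and 3712 CPM (0.98 ± 0.14, adjusted p = 0.000865), EFEMP1 from 11.3 and 14.8 to 35.8 and 33.9 CPM, and TGFBI by 0.78. AGRN, agrin, fell by 0.40; no fall in that list remained called without DMSO replicate 1, DMSO replicate 2, GSK3326595 replicate 2 or either palbociclib library (adjusted p of AGRN 0.0549 to 0.165). Of 33 metalloproteinase and inhibitor genes 6 rose, led by MMP15 (1.17) and MMP3 (1.02), and 2 fell, of which MMP16 fell by 0.45.

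Signalling lists held rises and falls side by side. The TGF-beta list had 25.8% called higher and 9.68% lower, and receptor tyrosine kinases 14.8% and 22.2%. Over all genes these shares were 9.16% and 10.6%. In the TGF-beta list 8 of 31 were called higher and 3 lower, and 1 of the 31 passed the count filter in 1 group only. With genes of a mean of at least 1 CPM, 6 were called higher and 3 lower. The activin subunit INHBA went from 47.3 and 56.1 to 80.9 and 100.5 CPM and BMP1 rose by 0.62, while BMP2 fell by 0.81. The rises numbered 4 without DMSO replicate 1, and 1 fall remained without DMSO replicate 1, DMSO replicate 2 or GSK3326595 replicate 2. Of 27 receptor tyrosine kinase genes 4 were called higher and 6 lower. Among the 27, 2 passed the count filter in 1 group only, so these counts are a description. With genes of a mean of at least 1 CPM, 3 were called higher and 6 lower. FGFR1 went from 69.5 and 74.7 to 50.3 and 48.6 CPM, FGFR4 fell by 0.89, and ROS1 rose by 1.03. The falls numbered 2 without DMSO replicate 1, where EGFR (-0.40) was among those lost (adjusted p = 0.0708). Of 23 ERK pathway output genes 3 rose (13%) and 4 fell (17.4%), and of 21 AP-1 and immediate-early genes 4 rose and 4 fell (19% each). DUSP1, a MAP kinase phosphatase, rose by 1.05, and SPRY2, an ERK feedback inhibitor, fell by 0.35. FOSL1, an AP-1 subunit, fell from 243 and 249 to 142 and 180 CPM. Of 29 semaphorin, plexin and neuropilin genes 6 rose (20.7%) and 2 fell (6.9%), the falls not called in DESeq2. SEMA3C, PLXNB1 and PLXNB2 rose by 0.57, 0.65 and 0.42. In each of these lists 1 gene passed the count filter in 1 group only.

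Antigen presentation genes of MHC class I held more falls than rises, and those of class II did not. The class I and peptide loading list had 5% called higher and 35% lower, and NK cell and checkpoint ligands 25% higher. Over all genes 9.16% were called higher and 10.6% lower. In the MHC class II list 2 of 9 tested genes rose (22.2%) and none fell. Both treated libraries lay above both DMSO libraries in 7 of the 9 (28.4% over all genes) and below them in 1 (30.3%). Some of these class II calls were lost when 1 library was left out. Of 20 MHC class I and peptide loading genes 7 fell and 1 rose. HLA-B went from 21.1 and 19.8 to 11.5 and 12.8 CPM (-0.75 ± 0.11, adjusted p = 0.00103), and HLA-C from 69.1 and 62.4 to 45.1 and 52.4 CPM. TAP1, a peptide transporter subunit, rose by 0.43. HLA-C lost its call without DMSO replicate 1 (adjusted p = 0.0731) and TAP1 without DMSO replicate 2 and GSK3326595 replicate 2 (0.0971 and 0.0949). The falls numbered 2, 3, 3 and 4 without DMSO replicates 1 and 2 and GSK3326595 replicates 1 and 2. HLA genes are highly similar to each other, so reads could be split among them. In palbociclib HLA-B was at 48.7 and 50.8 CPM, and the log2 difference of GSK3326595 from it was -2.03 (adjusted p = 4.46e-06). Interferon-stimulated genes were near the background with 2 rises (TRIM22 by 1.7, ISG15 by 0.84) and 3 falls (IFI35, OAS3 and ISG20, by 0.70, 0.48 and 0.58) of 41. Among ligands for NK cells and checkpoint receptors 4 of 16 rose, including VSIR (7.22 and 7.15 to 11.2 and 14.9 CPM) and CD274, the PD-L1 gene (6.06 and 6.68 to 14.1 and 9.91 CPM). CD274 lost its call without DMSO replicate 1 and GSK3326595 replicate 1 (adjusted p = 0.0602 and 0.0538), and the rises numbered 2 without either DMSO library.

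Lineage and other transcription factors gave a mixed account. SOX, KLF and SP genes were called lower in 25%, against 10.6% over all genes. Cadherins and protocadherins were called higher in 20.5%, against 9.16% over all genes, and lower in 3.61%. In the melanocyte lineage and pigment list 2 of 15 tested genes rose (13.3%) and 1 fell (6.67%), against 9.16% and 10.6% over all genes. MITF, the master regulator of melanocytes, rose from 57.2 and 60.7 to 78.7 and 87.0 CPM (0.49 ± 0.09, adjusted p = 0.00297). Its target GPNMB rose from 62.1 and 52.1 to 85.1 and 89.6 CPM, while its low targets PMEL and MLANA did not pass (adjusted p = 0.558 and 0.771). SOX10 overlapped between groups (164 and 190 against 122 and 166 CPM). Of 32 SOX, KLF and SP genes 8 fell and none rose, among them SP4, SOX11 and KLF6, which fell by 0.85, 0.98 and 0.45. The falls numbered 5 without DMSO replicate 1 or GSK3326595 replicate 1 and 4 without DMSO replicate 2. Of 504 ZNF genes 50 rose, near the background, and 17 fell (3.37% against 10.6% over all genes). ZNF202 and ZNF219 rose by 0.85 and 0.86, whereas ZNF367, a cell-cycle regulated factor, fell from 46.0 and 45.1 to 21.6 and 20.6 CPM. The ZNF rises numbered 22, 13 and 23 without DMSO replicate 1, DMSO replicate 2 and GSK3326595 replicate 1, and the falls 9, 8, 30 and 8 without DMSO replicates 1 and 2 and GSK3326595 replicates 1 and 2, so the balance reversed in the last but one of these. Cadherins and protocadherins gave 17 rises and 3 falls of 83, with PCDHB2 from 14 and 15.4 to 23.6 and 23.4 CPM, CDH10 and DSC3 up by 1.52 and 0.98, while PCDHGC3 fell by 0.59. Clustered protocadherins share exons, and the rises numbered 5, 9 and 4 without DMSO replicate 1, DMSO replicate 2 and GSK3326595 replicate 2, with 1 fall without DMSO replicate 1.

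**Figure D5:**
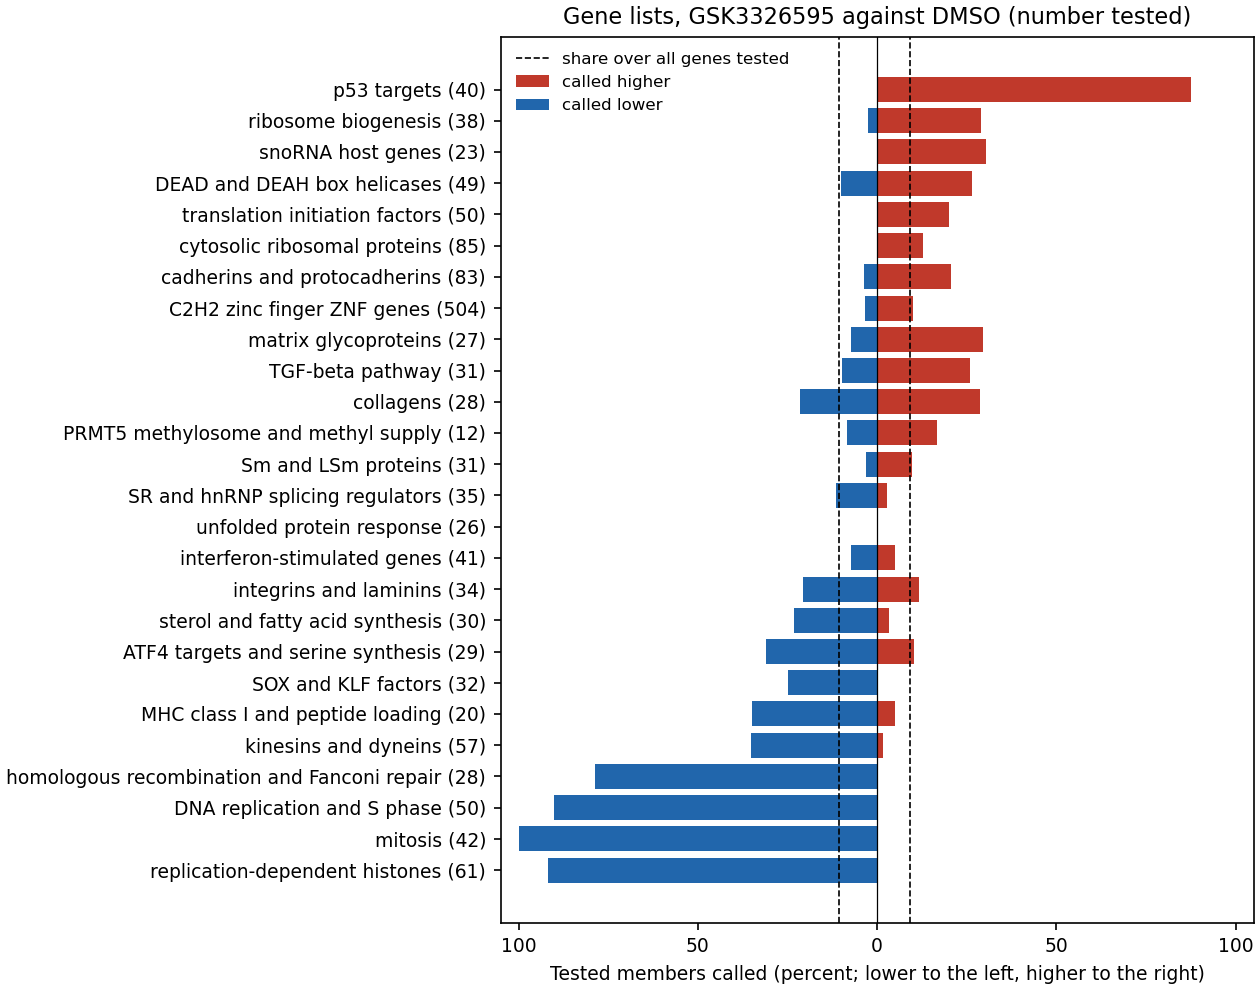
Bars give the percent of tested members called higher (red, right) or lower (blue, left) in 26 gene lists, with the number tested in parentheses and dashed lines at the shares over all genes tested, 9.16% higher and 10.6% lower. The division lists reach 78.6% to 100% lower, and most other lists have members on both sides.

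For comparison, 35 of 40 p53 target genes rose and none fell, led by CDKN1A (146 and 143 to 441 and 574 CPM). Tested directly against palbociclib, GSK3326595 differed in 5607 of the 15792 genes (35.5%), with 2891 above (18.3%) and 2716 below (17.2%).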

How the data were processed

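RNA was sequenced from A375 cells after DMSO, palbociclib or GSK3326595. The authors deposited raw read counts per NCBI Gene ID, 1 table per library. Per the submitters' processing notes, hg38 was the genome build, and the tools named are HISAT2, featureCounts 1.6.2, cutadapt 1.7, limma and CASAVA 1.8.2. How counting treated strand and multi-mapped reads, and with which annotation, was not given in the sources used here. Symbols and positions came from the RefSeq table of GRCh38.p14, which matched 27745 of 28395 IDs. The others stayed in under their IDs.

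Counts were tested with edgeR 4.0.16 (TMM, quasi-likelihood F test, two-sided, Benjamini-Hochberg over 15792 genes, called at 0.05), 1 coefficient per group over 6 libraries with 3 residual degrees of freedom. CPM used TMM-scaled totals, and SE is the absolute log2 fold change over the square root of F. On simulated counts for this comparison, 200 of 15792 genes were given known changes, all with a mean of at least 5 CPM. Every gene was drawn with the same dispersion. There 100% of changes of 1 and 67.0% of changes of 0.5 on the log2 scale were found, and 7.73% of calls were false. These figures do not cover changes in genes below that level or gene-to-gene differences in spread. DESeq2 1.42.0, other scalings, filters, a replicate block, leaving out each library and a shorter promoter window were the alternatives. Of 78 gene lists the text describes a part. Members, lists and tests were chosen with earlier results of these data known. Named genes were the 12 largest rises and falls with a mean of at least 5 CPM outside the p53 and histone lists (pseudogenes, miRNA loci and uncharacterised loci left out), for each list up to 3 called members by p in its more frequent direction and 1 in the other, and the clearest of each type and level class; other genes named, such as NEAT1 or COL6A1, were chosen by level or after their values were seen.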

Additional observations from a re-analysis of the deposited data

How the results depend on the processing

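Of 314 named genes called, 200 kept their call in every alternative run that tested them, and no named gene reversed direction. A run that left a gene out, or gave it no adjusted p, was not counted for that gene. The calls lost were 84 without DMSO replicate 1, 68 without DMSO replicate 2, 32 without GSK3326595 replicate 1, 69 without GSK3326595 replicate 2, 21 without either palbociclib library and 21 with DESeq2. Leaving out 1 library at a time gave 1746 to 3254 genes called, 663 to 1591 higher, 1048 to 1663 lower, 423 to 664 with at least a 2-fold change and 3289 to 5458 against palbociclib. DESeq2 called 352 genes with at least a 2-fold change, against 550 in edgeR. The replicate numbers are shared by the groups in the labels, but with 2 pairs they were not taken as pairing. Deviations of same-numbered libraries correlated at 0.374 for DMSO and GSK3326595, 0.194 for DMSO and palbociclib and 0.162 for GSK3326595 and palbociclib. With the replicate number as a block, 5802 genes were called, 2862 higher and 2940 lower. The cause of these shifts was not tested. With 2 libraries per group and few reads, changes under 2-fold were not detected below 1 CPM.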
